A study of Mus musculus with 11 samples.

Results

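Cells that enter senescence stop dividing and secrete a mixture of cytokines, chemokines, growth factors and proteases, and 44 genes for such secreted or surface factors were followed here in mouse hearts, of 55487 gene identifiers in the deposited table. They were chosen by symbol: 6 interleukins, 9 CC chemokines, 8 CXC chemokines, 6 insulin-like growth factor (IGF) binding proteins, 6 growth factors, 4 other cytokines, 4 genes of the plasminogen system and the adhesion molecule Icam1. All 44 were found in the table. After a filter on low counts 38 could be tested, and Il6, Ccl3, Ccl4, Cxcl2, Igfbp2 and Areg were too low.

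RNA came from whole hearts of female C57BL/6NTac mice, aged 8 weeks when their diets began. The cocktail-treated obese group (3 libraries) received an obesogenic diet for 24 weeks, a chow with 60.3% of energy from fat given together with sweetened condensed milk (55% sugar). From week 16 these animals were gavaged with dasatinib (5 mg/kg), a tyrosine kinase inhibitor, and quercetin (50 mg/kg), a plant flavonoid, in 10% PEG400, a pair used to remove senescent cells. The obese group (4 libraries) had the same diet with the PEG400 vehicle alone. The control-diet group (4 libraries) ate a diet with 10.4% of energy from fat. No source used here says whether the control-diet mice were gavaged, so diet and gavage cannot be told apart. The labels name no transgene or mutation in any group. Nothing in the labels ties each library to an animal of its own. The p-values therefore cover the spread among these libraries, part of which may be technical.

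Most of these factors act outside the cell. Chemokines bind receptors on leukocytes and stem cells and draw them toward the source, and IGF-binding proteins hold IGF1 and IGF2 in the matrix and blood and so set how much reaches the IGF receptor. In the heart, fibroblasts, endothelial cells, mural cells and resident macrophages are known sources, and transcription of many of the inflammatory members is driven by NF-kappa-B and C/EBP-beta.

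In the tests below, 5 of the 44 genes passed in at least 1 comparison: the chemokines Cxcl12 and Cxcl9, the cytokine Mif, and the binding proteins Igfbp4 and Igfbp5. Their promoters are shown to set the sequences of the members that fell beside those of the members that rose. Each run holds the 250 bases before the RefSeq gene start (GRCm38.p6), 5′ to 3′ on the gene's own strand, and capitals mark a match to one of the motifs searched.

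Cxcl12, chr6:117168285-117168534, plus strand: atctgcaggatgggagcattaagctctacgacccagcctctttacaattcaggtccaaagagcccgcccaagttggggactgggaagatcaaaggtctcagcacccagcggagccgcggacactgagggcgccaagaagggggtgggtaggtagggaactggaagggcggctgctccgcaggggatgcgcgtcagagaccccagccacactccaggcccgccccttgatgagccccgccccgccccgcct
Cxcl9, chr5:92328080-92328329, minus strand: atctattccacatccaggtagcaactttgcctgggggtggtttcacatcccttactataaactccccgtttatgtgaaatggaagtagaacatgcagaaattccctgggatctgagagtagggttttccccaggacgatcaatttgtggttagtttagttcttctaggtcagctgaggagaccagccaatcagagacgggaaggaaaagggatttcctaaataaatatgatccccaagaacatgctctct
Mif, chr10:75860278-75860527, minus strand: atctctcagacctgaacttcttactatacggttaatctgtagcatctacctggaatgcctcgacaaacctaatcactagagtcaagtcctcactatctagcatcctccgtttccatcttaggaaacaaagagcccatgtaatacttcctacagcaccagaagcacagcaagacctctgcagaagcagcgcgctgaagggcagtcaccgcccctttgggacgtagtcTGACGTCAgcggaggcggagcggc
Igfbp4, chr11:99040994-99041243, plus strand: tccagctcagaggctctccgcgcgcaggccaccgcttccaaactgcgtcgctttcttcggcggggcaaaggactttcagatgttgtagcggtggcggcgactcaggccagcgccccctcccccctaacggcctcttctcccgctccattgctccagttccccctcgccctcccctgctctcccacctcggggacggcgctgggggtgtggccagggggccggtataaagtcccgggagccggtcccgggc
Igfbp5, chr1:72874866-72875115, minus strand: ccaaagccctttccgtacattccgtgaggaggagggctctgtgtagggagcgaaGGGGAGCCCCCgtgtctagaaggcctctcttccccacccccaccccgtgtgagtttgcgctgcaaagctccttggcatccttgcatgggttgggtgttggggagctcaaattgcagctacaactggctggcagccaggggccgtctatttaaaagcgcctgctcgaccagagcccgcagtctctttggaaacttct

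The 5 promoters differed in base composition: G and C made up 69.2% of the bases for Igfbp4, 64.4% for Cxcl12, 58.8% for Igfbp5, 51.2% for Mif and 44.4% for Cxcl9. The run for Mif held the cyclic AMP response element TGACGTCA, whose first and last bases lay 24 and 17 bases before the start. The run for Igfbp5 held the kappa-B consensus, in a pair of overlapping 10-base matches that together span bases 196 to 186 before the start. The runs for Cxcl12, Cxcl9 and Igfbp4 held none of the 5 motifs searched, which says only that these letters are not in this window. The RefSeq start of Mif lies 37 bases upstream of the GENCODE start. The GENCODE start of Igfbp5, at base 72874884, lies inside the printed window, so the last bases of its run belong to the GENCODE gene.

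RefSeq promoters were found for 34 of the 44 members and searched on both strands, with any overlap allowed. The kappa-B consensus was present in 8 of them (Ccl9, Csf1, Cxcl1, Cxcl10, Cxcl2, Igfbp5, Il6 and Lif) and in 9.08% of 17492 protein-coding promoters of the same length. The AP-1 motif TGANTCA was present in 7 of the 34 and in 7.19% of all. The C/EBP motif TTGCNNAA was present in 5 of the 34 and in 10.5% of all. The cyclic AMP response element was present in 2 (Areg and Mif) and in 2.20% of all, and the hypoxia response core ACGTG in 3 and in 19.96% of all. The cyclic AMP and hypoxia motifs were chosen with the sequences in view. A match is a description of the sequence, and no test was made of it.

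Library totals were 64.2 to 72.3 M counts in treated, 52.7 to 67.2 M in obese and 73.1 to 103.3 M in control-diet libraries, so every control library was the deeper one. The control-diet libraries also stood apart in the share of counts from the mitochondrial chromosome, which was 20.2% ± 2.28 in treated (SD, n = 3), 23.0% ± 1.28 in obese and 29.9% ± 1.92 in control-diet libraries (SD, n = 4 each). Genes annotated as sense-intronic or as awaiting experimental evidence, called the intronic share here, took 0.603% ± 0.0837 of counts in treated (SD, n = 3), 0.732% ± 0.0630 in obese and 0.399% ± 0.139 in control-diet libraries (SD, n = 4 each). The intronic share spanned 0.663% to 0.811% in obese and 0.286% to 0.590% in control-diet libraries, without overlap. A fit with this share as a covariate therefore cannot tell diet from share in obese against control-diet hearts. The 8 general cardiomyocyte markers summed to between 23625 and 42908 CPM (counts scaled to library size) in all 11 libraries, as the heart label implies. The sum of 5 atrial myocyte markers reached 2597 CPM in treated replicate 2, 5388 CPM in treated replicate 3 and 1979 CPM in obese replicate 3, against 15.5 to 185 CPM in the other 8 libraries. These 3 libraries are called the atrial-high libraries here, and values without them are given beside the results that move most. Their part in a result was not tested beyond that. In RNA from whole tissue, fewer cells of a type and less RNA per cell cannot be told apart.

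Levels per length were compared as CPM divided by exon length in kilobases (RPKM), averaged over the 11 libraries. A few binding proteins, Mif and Cxcl12 carried most of the signal: Igfbp7 averaged 54.4 RPKM, Igfbp5 36.4, Mif 31.1, Cxcl12 26.3 and Igfbp4 20.5. These 5 made up 71.2% of the summed RPKM of the 44 members, and Igfbp7, part of whose exons overlap another gene on the opposite strand, ranked 422 among 23704 genes. Next came Igfbp3 with 9.96 RPKM, Igfbp6 with 7.95, Il15 with 7.80 and the macrophage growth factor Csf1 with 7.497. By contrast, 24 members lay under 1 RPKM and 8 under 0.1 RPKM, among them the best known inflammatory members. Tnf averaged 0.164 RPKM, Il1b 0.157, Il1a 0.0839 and Il6 0.0207.

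**Figure D1:**
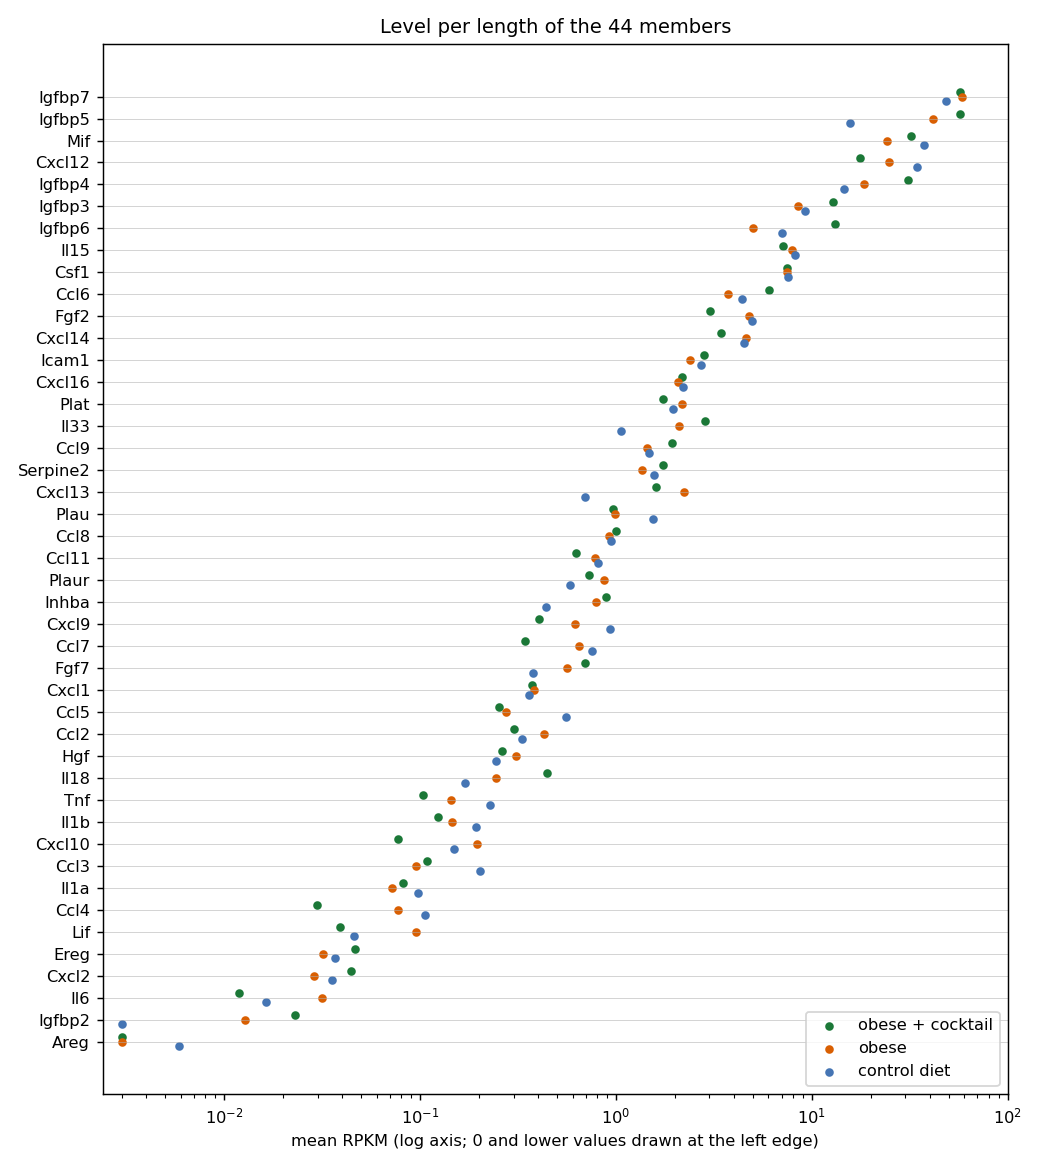
Mean level of each of the 44 members in treated obese, obese and control-diet hearts, in RPKM on a log axis. Points are coloured by group, and rows are ordered by the mean over the 11 libraries. Igfbp7 stood highest by that mean, at 54.4 RPKM, and the binding proteins fill most of the top. The interleukins other than Il15 and most chemokines lie near or under 1 RPKM.

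The 6 members too low to test had few counts over all 11 libraries. Ccl3, a macrophage chemokine, had 83, Cxcl2, a neutrophil chemokine, 56, Ccl4 39, Il6, the interleukin most often measured in senescence, 38, Igfbp2 16 and the EGF receptor ligand Areg 2. Il6 had 0, 2 and 5 counts in treated, 0, 9, 4 and 7 in obese, and 0, 0, 3 and 8 in control-diet libraries. Zeros stood in each group, and no order of the groups was detectable at this depth. Igfbp2 had 2, 2 and 6 counts in treated libraries, 0, 4, 2 and 0 in obese libraries and 0 in all 4 control-diet libraries. A count of 0 allows up to 3 counts, which is 0.0337 to 0.0514 CPM depending on the library.

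Obese hearts were first set against control-diet hearts, to ask what the diet did to these factors. Of the 38 members tested, 0 were higher and 2 were lower in obese hearts at an adjusted p under 0.05: the chemokine Cxcl12, which binds CXCR4 and retains stem cells and leukocytes, and Mif, macrophage migration inhibitory factor, which binds CD74. That is 5.26% of the members, beside 30.1% of all 23779 genes tested, of which 14.4% were higher and 15.7% lower. At an unadjusted p under 0.05 there were 3 higher and 4 lower members, beside 42.7% of all genes (22.4% higher and 20.3% lower). DESeq2 called 1 member higher and 4 lower, beside 3717 and 4480 of all 23779 genes. For voom these were 0 and 3 members, beside 3296 and 3710 of all genes. The median log2 fold change was -0.04 over the members and 0.11 over all genes, and members ranged from -1.02 for Ccl5 to 1.69 for Cxcl13. All levels from here on are CPM values, and tests are edgeR's quasi-likelihood test with Benjamini-Hochberg adjustment over all 23779 genes.

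**Figure D2:**
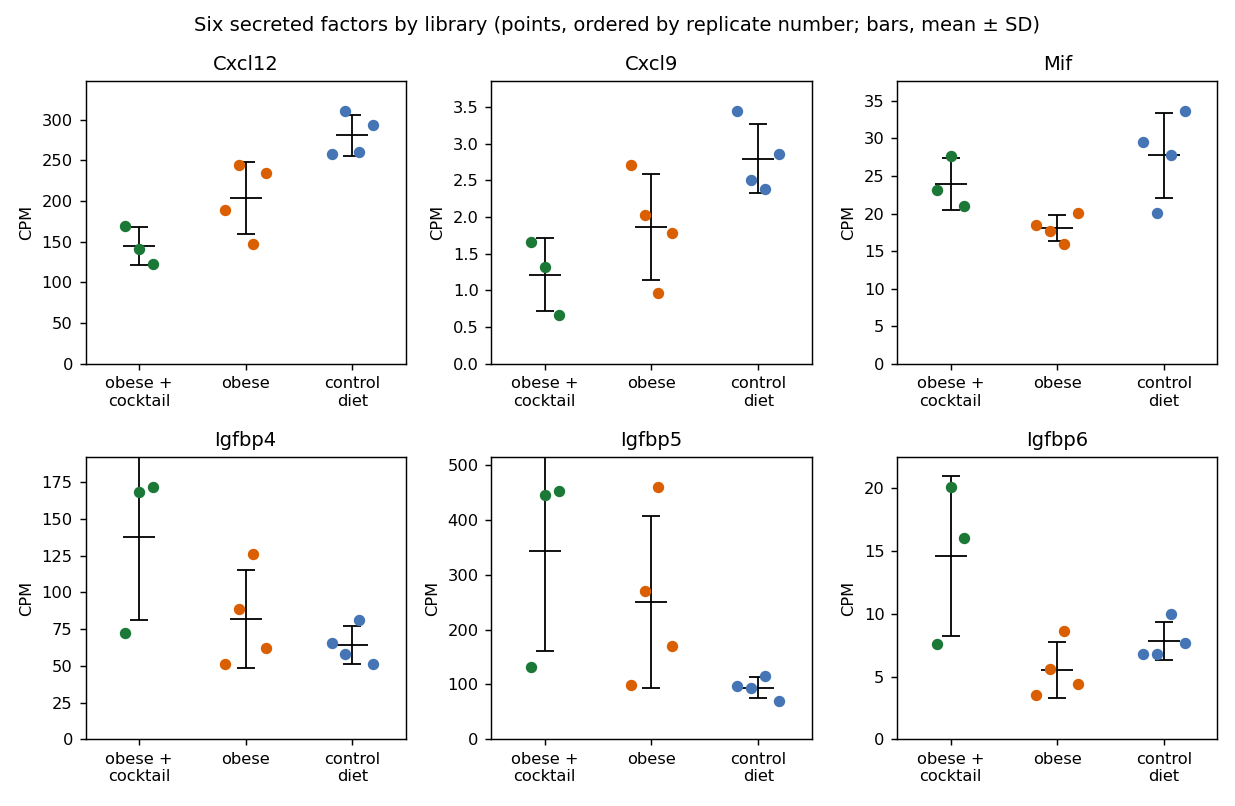
CPM in each library for Cxcl12, Cxcl9, Mif, Igfbp4, Igfbp5 and Igfbp6, with groups in the order treated obese, obese and control diet and bars at the group mean with SD. Cxcl12 stands highest in the 4 control-diet libraries, at 258 CPM or more, and Igfbp5 is spread widely in treated and obese libraries while the control-diet libraries lie close together.

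Cxcl12 (ENSMUSG00000061353, GRCm38 chr6:117168535-117181367, plus strand) had 188, 244, 148 and 234 CPM in obese hearts, against 258, 310, 260 and 294 CPM in control-diet hearts. Every obese library lay below every control-diet library, and obese replicate 3, an atrial-high library, was the lowest. The means were 203 ± 44.4 and 281 ± 25.7 CPM (SD, n = 4 each), a 1.38-fold lower level in obese hearts (log2 fold change -0.46, SE 0.16, adjusted p = 0.0434). Cxcl12 was the 1 member whose obese libraries all lay below the control-diet libraries, as did those of 14.7% of all genes, and 0 members lay wholly above, as did 13.8% of all genes. The call was close to the threshold. It was lost in 13 of 22 alternatives, with adjusted p between 0.0546 and 0.808, including with the 3 atrial-high libraries left out (-0.34, adjusted p = 0.105) and with each control-diet library left out in turn (0.0568 to 0.0900).

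Markers of endothelial and mural cells moved the same way as Cxcl12, and those of fibroblasts did not. Of 6 endothelial markers 3 were lower in obese hearts and 0 higher, with sums of 550 to 658 CPM in obese against 746 to 878 CPM in control-diet libraries. Of 7 mural cell markers 2 were lower and 0 higher, with sums of 897 to 1213 CPM in obese against 1390 to 1590 CPM in control-diet libraries. Of 7 fibroblast markers 1 was higher and 0 lower, with sums of 919 to 2358 CPM in obese against 1173 to 1388 CPM in control-diet libraries. Over all genes 14.4% were higher and 15.7% lower. No marker on these lists was at 0. On other lists 4 of 8 general cardiomyocyte, 3 of 10 lymphocyte, 2 of 13 macrophage and 1 of 4 tested neutrophil markers were lower. By contrast, 4 of 6 adipocyte, 1 of 5 mesothelial and 1 of 3 Schwann markers were higher. Atrial and erythroid markers were called in neither direction. The part of any of these cell types in the Cxcl12 result was not tested.

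Mif (ENSMUSG00000033307, GRCm38 chr10:75859353-75860240, minus strand) had 18.4, 17.6, 15.9 and 20.10 CPM in obese hearts, against 29.5, 20.005, 27.8 and 33.6 CPM in control-diet hearts. Obese replicate 4 and control replicate 2 overlapped by a narrow margin, and the other control-diet libraries stood clearly higher. The means were 18.03 ± 1.73 and 27.7 ± 5.70 CPM (SD, n = 4 each), 1.54-fold lower in obese hearts (log2 fold change -0.62, SE 0.15, adjusted p = 0.00809). Leaving out any 1 library kept the call, with adjusted p between 0.000815 and 0.0287. With library totals alone as the scaling the difference was -0.18 (adjusted p = 0.198). With the intronic share as a covariate it turned to 0.14 (adjusted p = 0.723), a fit that called 35 genes higher and 86 lower in all. The share did not overlap between obese and control-diet libraries, so this fit cannot tell diet and share apart.

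Members just short of the threshold fell on both sides. Igfbp5, a matrix-bound binding protein, had 99.6, 270, 459 and 170 CPM in obese hearts, against 97.5, 92.9, 115 and 69.2 CPM in control-diet hearts. The obese libraries spread over a wide range, and only replicate 1 fell among the control-diet libraries. The log2 fold change was 1.41 (SE 0.49, adjusted p = 0.0535), and 0.94 with an adjusted p of 0.0397 without the 3 atrial-high libraries. It passed in 9 of 22 alternatives.

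Plau, the urokinase plasminogen activator, had 2.04, 3.27, 2.14 and 1.91 CPM in obese hearts, against 4.46, 3.46, 3.03 and 3.76 CPM in control-diet hearts. Its log2 fold change was -0.65 (SE 0.24, adjusted p = 0.0524), with obese replicate 2 alone reaching into the control range. Ccl5, a chemokine made by T cells and platelets, had 0.394, 0.204, 0.256 and 0.204 CPM in obese hearts, against 0.524, 0.330, 0.707 and 0.577 CPM in control-diet hearts. Its obese libraries were the lower ones apart from replicate 1, which overlapped (log2 fold change -1.02, SE 0.38, adjusted p = 0.0585). Lymphocyte markers summed to 5.70 to 12.7 CPM in obese against 12.3 to 20.7 CPM in control-diet libraries, with 3 of 10 lower, 0 higher and none at 0. Over all genes 15.7% were lower and 14.4% higher. The part of lymphocytes in the Ccl5 values was not tested.

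The other members did not pass. Csf1, which maintains macrophages, had 35.5, 46.5, 41.8 and 34.4 CPM in obese hearts, against 46.0, 35.1, 37.5 and 40.5 CPM in control-diet hearts (log2 fold change -0.01, SE 0.14). Il15, a survival factor for natural killer and memory T cells, averaged 17.9 ± 2.26 CPM in obese and 18.6 ± 1.73 CPM in control-diet hearts (log2 fold change -0.05, SE 0.12). These 2 members had the smallest SEs of the 38, and their groups overlapped throughout. Igfbp7, the most abundant member per length, had 57.0, 96.3, 65.2 and 64.5 CPM in obese hearts, against 66.0, 59.3, 49.3 and 59.2 CPM in control-diet hearts. Obese replicate 2 stood above the rest and the groups overlapped (log2 fold change 0.28, adjusted p = 0.187). The urokinase receptor gene Plaur reached an unadjusted p of 0.0484 and an adjusted p of 0.114 with a log2 fold change of 0.57. Lif, an IL-6 family cytokine, averaged 0.416 ± 0.177 CPM in obese and 0.199 ± 0.0960 CPM in control-diet hearts, with a log2 fold change of 1.08 and an adjusted p of 0.111.

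**Figure D3:**
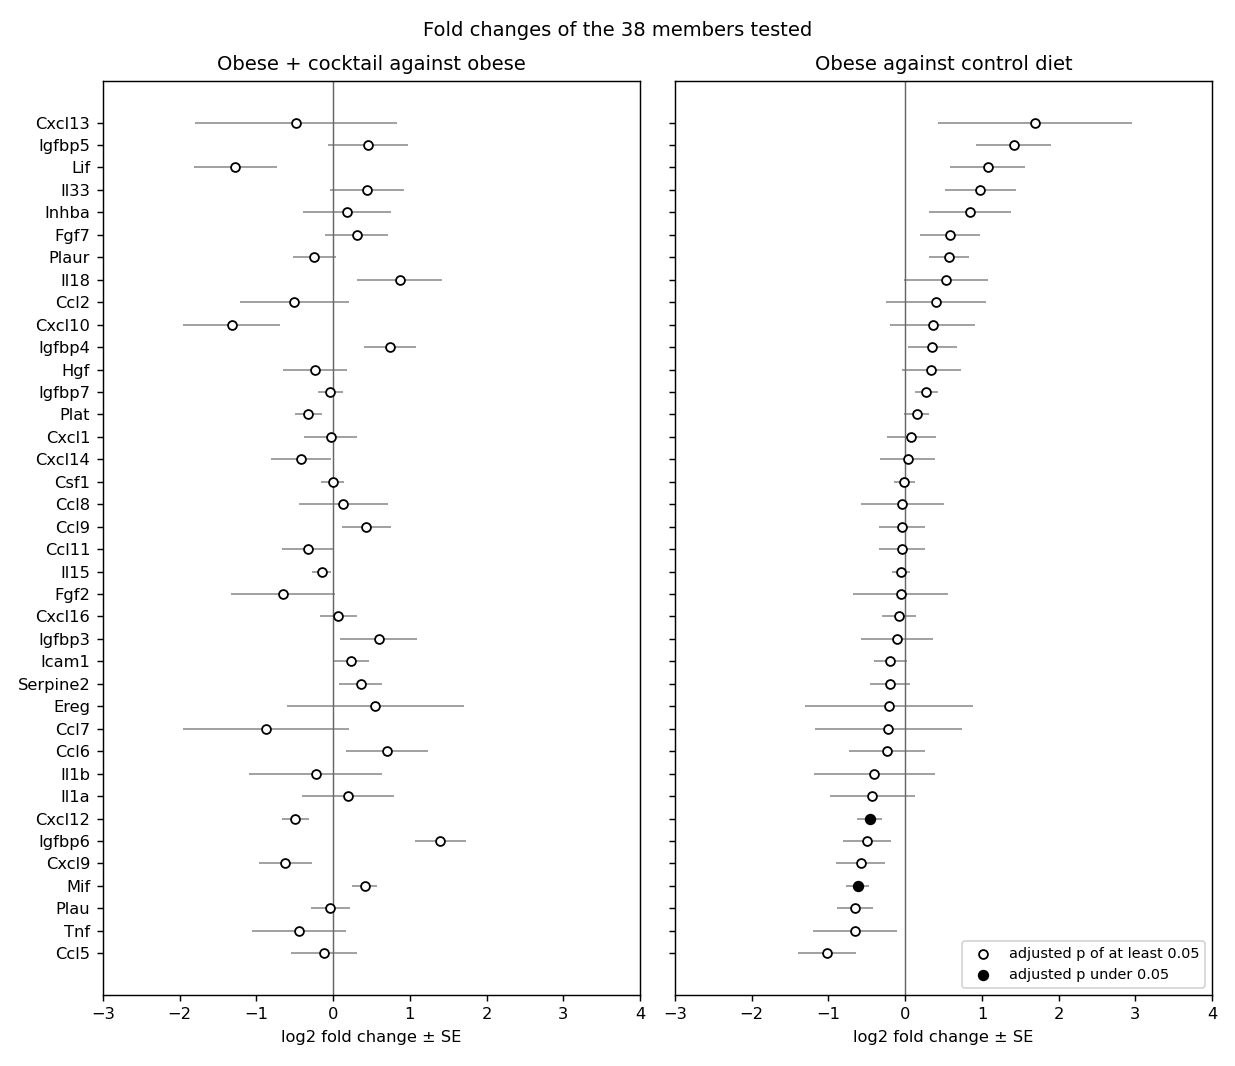
Log2 fold change with SE for the 38 tested members, in treated against vehicle-treated obese hearts (left) and in obese against control-diet hearts (right). Rows of both panels are ordered by the fold change of the right panel, and filled points have an adjusted p under 0.05. The left panel has 0 filled points, and the right panel has 2, Cxcl12 and Mif, both below 0.

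Cocktail-treated obese hearts were then set against vehicle-treated ones, to ask what the senolytic did. Of the 38 members 0 were higher and 0 lower at an adjusted p under 0.05, and 0% of all 23779 genes were called by edgeR. At an unadjusted p under 0.05 there were 2 members higher and 2 lower, beside 10.2% of all genes (5.04% higher and 5.16% lower). DESeq2 called 51 genes higher and 80 lower over the whole table, 1 of them a member, and limma voom called 0. The median log2 fold change was -0.03 over the members and -0.01 over all genes, and members ranged from -1.32 for Cxcl10 to 1.40 for Igfbp6. The obese libraries entered this comparison and the comparison with control diet, so the values of both are given side by side and not correlated.

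The 6 members with the smallest p in this comparison were Igfbp6, Cxcl12, Mif, Lif, Igfbp4 and Cxcl10. Igfbp6 (ENSMUSG00000023046), which prefers IGF2 to IGF1, had 7.63, 20.1 and 16.0 CPM in treated hearts, against 3.51, 5.64, 8.61 and 4.41 CPM in vehicle-treated obese hearts. Treated replicates 2 and 3 lay above every obese library, and treated replicate 1 lay between obese replicates 2 and 3. The means were 14.6 ± 6.36 CPM (SD, n = 3) and 5.55 ± 2.22 CPM (SD, n = 4), a log2 fold change of 1.40 (SE 0.33, unadjusted p = 0.00124, adjusted p = 0.354 by edgeR and 0.0111 by DESeq2). The control-diet hearts, at 7.82 ± 1.51 CPM (SD, n = 4), lay between these means. Against control diet the log2 fold change was 0.90 (adjusted p = 0.0838), 1.20 with an adjusted p of 0.0202 without treated replicate 1, and -0.03 with an adjusted p of 0.97 without the 3 atrial-high libraries. Without the 3 atrial-high libraries the treated group is replicate 1 alone, assumed to vary like the other groups, and the log2 fold change against vehicle-treated obese hearts was 0.76 (adjusted p = 1).

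Mif had 23.1, 27.7 and 20.98 CPM in treated hearts, against 18.4, 17.6, 15.9 and 20.10 CPM in vehicle-treated obese hearts. The lowest treated library lay just above the highest obese library, and Mif was the 1 member of 38 whose treated libraries all lay above the obese ones, beside 4.68% of all genes. The log2 fold change was 0.41 (SE 0.16, unadjusted p = 0.0233), with an adjusted p of 0.426. In 0 members did every treated library lie below every obese library, beside 5.45% of all genes.

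Cxcl12 had 169, 141 and 123 CPM in treated hearts, against 188, 244, 148 and 234 CPM in vehicle-treated obese hearts. Only obese replicate 3 lay within the treated range, and the log2 fold change was -0.49 (SE 0.17, unadjusted p = 0.0139, adjusted p = 0.41). Igfbp4, which binds both IGFs and is cut by pappalysin, had 72.6, 168 and 172 CPM in treated hearts, against 51.0, 88.9, 126 and 62.3 CPM in vehicle-treated obese hearts. Its groups overlapped through treated replicate 1 (log2 fold change 0.75, SE 0.34, adjusted p = 0.491). Without the 3 atrial-high libraries, where treated replicate 1 stands alone, the log2 fold change was 0.12.

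Lif and Cxcl10, both under 1 CPM in every library, did not pass. Lif had 0.0591, 0.253 and 0.195 CPM in treated hearts, against 0.205, 0.582, 0.543 and 0.335 CPM in vehicle-treated obese hearts (log2 fold change -1.28, SE 0.54, adjusted p = 0.459). Without the 3 atrial-high libraries, where treated replicate 1 stands alone, the log2 fold change of Lif was -2.62. Cxcl10, an interferon-induced ligand of CXCR3, had 0.148, 0.228 and 0.146 CPM in treated hearts, against 0.137, 0.770, 0.655 and 0.189 CPM in vehicle-treated obese hearts (log2 fold change -1.32, SE 0.64, adjusted p = 0.503). Its obese libraries split into a high and a low pair, and the low pair overlapped the treated values. Exons of Cxcl10 overlap those of Art3 on the opposite strand, which had 175219 counts against 256 for Cxcl10, and without a stated use of strand the reads of both cannot be told apart. The same holds for Igfbp7 (50811 counts) and Polr2b (31558), for Cxcl16 (5030) and Zmynd15 (2799), and for Il1a (130) and Gm14023 (685), whose exons overlap on opposite strands.

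The comparison of treated obese with control-diet hearts sets the treated animals against lean ones. Of the 38 members 2 were higher (Igfbp4 and Igfbp5) and 2 lower (Cxcl9 and Cxcl12), which is 10.5% of the members beside 15.8% of all genes, of which 7.43% were higher and 8.39% lower. At an unadjusted p under 0.05 there were 6 higher and 4 lower members, beside 32.1% of all genes (16.4% higher and 15.7% lower). The median log2 fold change was 0.01 over the members and 0.05 over all genes. Igfbp5 and Il18 lay wholly above the control-diet libraries, as did 13.7% of all genes, and Cxcl9, Cxcl12 and Plau wholly below, as did 14.1% of all genes.

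Igfbp5 (ENSMUSG00000026185, GRCm38 chr1:72857932-72874884, minus strand) had 132, 445 and 451 CPM in treated hearts, against 97.5, 92.9, 115 and 69.2 CPM in control-diet hearts. All 3 treated libraries were above the control range, replicate 1 by little and replicates 2 and 3 by a wide margin. The means were 343 ± 183 CPM (SD, n = 3) and 93.8 ± 19.0 CPM (SD, n = 4), 3.66-fold higher in treated hearts, with a log2 fold change of 1.87 (SE 0.52, adjusted p = 0.0392). Igfbp4 (ENSMUSG00000017493, GRCm38 chr11:99041244-99054392, plus strand) had 72.6, 168 and 172 CPM in treated hearts, against 65.8, 58.4, 81.3 and 51.1 CPM in control-diet hearts. Treated replicate 1 lay inside the control range, and the 2.14-fold higher mean was at the edge of the threshold (log2 fold change 1.10, SE 0.34, adjusted p = 0.04996).

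Both binding protein calls rested on treated replicates 2 and 3. Without the 3 atrial-high libraries, treated replicate 1 alone gave a log2 fold change of 0.50 for Igfbp5 (adjusted p = 0.52) and 0.19 for Igfbp4 (adjusted p = 0.748). Without treated replicate 3 the adjusted p was 0.145 for Igfbp5 and 0.187 for Igfbp4, and without replicate 2 it was 0.104 and 0.141. Leaving out 1 control-diet library in turn also lost both calls, with adjusted p of 0.0635 to 0.104 for Igfbp5 and 0.0603 to 0.131 for Igfbp4. Leaving out obese replicate 2 or 4, which are in neither group compared, lost both as well (0.0554 and 0.0509 for Igfbp5, 0.067 and 0.0619 for Igfbp4). With the intronic share as a covariate the adjusted p was 0.33 for Igfbp5 and 0.384 for Igfbp4, and with no count filter it was 0.0898 and 0.102. Fibroblast markers, 7 in number and none at 0, summed to 1124, 2258 and 1994 CPM in treated hearts, against 1173 to 1388 CPM in control-diet hearts, with 0 called in this comparison. Their part in the binding protein results was not tested.

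Cxcl12 had 169, 141 and 123 CPM in treated hearts, against 258 to 310 CPM in control-diet hearts, with no overlap between the groups. The means were 144 ± 23.0 CPM (SD, n = 3) and 281 ± 25.7 CPM (SD, n = 4), 1.94-fold lower in treated hearts, with a log2 fold change of -0.96 (SE 0.18, adjusted p = 0.00517). This call held with every single library left out (adjusted p 0.00232 to 0.0366). It was lost with the intronic share as a covariate (-0.89, adjusted p = 0.0647). Without the 3 atrial-high libraries, where treated replicate 1 stands alone, the log2 fold change was -0.72. Of 6 endothelial markers 3 were lower, with sums of 552 to 590 CPM in treated against 746 to 878 CPM in control-diet libraries. Of 7 mural markers 3 were lower, with sums of 741 to 1205 CPM in treated against 1390 to 1590 CPM in control-diet libraries. Of 7 fibroblast markers 0 were higher and 0 lower, with sums of 1124 to 2258 CPM in treated against 1173 to 1388 CPM in control-diet libraries. Over all genes 7.43% were higher and 8.39% lower. Their part in the result was not tested.

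Cxcl9 (ENSMUSG00000029417, GRCm38 chr5:92321347-92328079, minus strand), an interferon-gamma-induced chemokine that attracts T cells, had 1.66, 1.32 and 0.670 CPM in treated hearts, against 3.44, 2.51, 2.38 and 2.86 CPM in control-diet hearts. Every treated library lay below every control-diet library, with treated replicate 3 the lowest. The means were 1.21 ± 0.501 CPM (SD, n = 3) and 2.80 ± 0.474 CPM (SD, n = 4), 2.31-fold lower in treated hearts, with a log2 fold change of -1.20 (SE 0.35, adjusted p = 0.0359). Vehicle-treated obese hearts stood between, at 1.87 ± 0.722 CPM (SD, n = 4), and differed from neither group by test (adjusted p = 0.551 from treated, 0.174 from control diet). The call was lost without control replicate 1 (adjusted p = 0.0874), 3 (0.0516) or 4 (0.0758), and without treated replicate 2 (0.07) or 3 (0.148). It was also lost with library totals alone (0.0819) and with the intronic share as a covariate (-0.84, 0.350). Without the 3 atrial-high libraries, where treated replicate 1 stands alone, the log2 fold change was -0.74. Of 10 lymphocyte markers 3 were lower, 0 higher and none at 0, beside 8.39% of all genes lower and 7.43% higher. Their sums were 6.23 to 8.49 CPM in treated against 12.3 to 20.7 CPM in control-diet libraries. Of 13 macrophage markers 2 were lower and 0 higher, with overlapping sums of 161 to 247 CPM in treated and 167 to 227 CPM in control-diet libraries. The part of either cell type in the result was not tested.

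Il33, an alarmin of the IL-1 family that binds ST2, had 3.33, 11.1 and 10.1 CPM in treated hearts, 2.45, 6.45, 10.9 and 4.25 CPM in vehicle-treated obese hearts, and 3.74, 2.12, 3.07 and 3.31 CPM in control-diet hearts. Treated replicate 1 and obese replicate 1 lay among the control-diet libraries and the others above them. The log2 fold change was 1.42 (SE 0.49, adjusted p = 0.0713) for treated and 0.98 (SE 0.46, adjusted p = 0.129) for vehicle-treated obese hearts, each against control diet. Without the 3 atrial-high libraries the value for treated hearts, where replicate 1 stands alone, was 0.13. That for vehicle-treated obese hearts was 0.52 (adjusted p = 0.222). Il18, another IL-1 family member, had 0.296, 0.545 and 0.536 CPM in treated against 0.113 to 0.287 CPM in control-diet hearts. Its log2 fold change was 1.40 with an adjusted p of 0.104, and 0.77 for treated replicate 1 alone without those libraries.

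The binding proteins as a group had median log2 fold changes, over the 5 tested, of 0.59 in treated against vehicle-treated obese hearts, 0.28 in vehicle-treated obese against control-diet hearts, and 0.90 in treated against control-diet hearts. The 7 tested CXC chemokines had medians of -0.48, 0.03 and -0.38 in the same 3 comparisons, and the 7 tested CC chemokines -0.12, -0.04 and -0.11. Without the 3 atrial-high libraries, where treated replicate 1 stands alone, the medians of the binding proteins were 0.12, 0.07 and 0.13, those of the CXC chemokines -0.38, -0.07 and -0.62, and those of the CC chemokines -0.19, -0.26 and -0.99. No role group had more than 2 members called in any comparison. Igfbp3, the main carrier of IGFs in blood, had 24.1, 31.3 and 65.3 CPM in treated, 13.1, 20.7, 53.002 and 20.1 CPM in vehicle-treated obese, and 25.8, 28.3, 41.1 and 19.96 CPM in control-diet hearts. The groups overlapped, with treated replicate 3 and obese replicate 3 the highest, and the smallest adjusted p of its 3 comparisons was 0.54. Igfbp7 had 63.4, 66.8 and 76.9 CPM and Csf1 31.1, 43.9996 and 43.1 CPM in treated hearts, within or close to the ranges of the other groups, and neither passed against vehicle-treated obese hearts (adjusted p = 0.955 and 0.993) or control diet (0.337 and 0.958).

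Over all 11 libraries, the atrial-high libraries often took the extremes. For 8 of the 38 tested members (Igfbp4, Igfbp5, Ccl6, Ccl9, Il33, Il18, Serpine2 and Hgf) obese replicate 3 and treated replicates 2 and 3 were the 3 highest of the 11 libraries, as they were for 4.67% of all genes tested. For Cxcl9 and Cxcl12 they were the 3 lowest, as for 1.70% of all genes. None of these libraries came from the control diet, so the tally does not separate them from differences between the groups. Ccl6 and Ccl9, mouse CC chemokines of macrophages that bind CCR1, were high in the same libraries within the groups as well. Ccl6 had 6.23, 12.2 and 14.1 CPM in treated, 2.79, 4.13, 14.99 and 4.75 CPM in vehicle-treated obese, and 6.51, 5.32, 9.11 and 10.55 CPM in control-diet hearts. Ccl9 had 3.87, 6.76 and 7.08 CPM in treated, 3.15, 2.88, 7.54 and 3.98 CPM in vehicle-treated obese, and 4.64, 3.26, 4.83 and 5.31 CPM in control-diet hearts. Both were highest in the same 3 libraries, which came from the treated and the vehicle-treated obese group and not from the control diet.

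Markers of several cell types were also high in these libraries. The 13 macrophage markers summed to 228 and 247 CPM in treated replicates 2 and 3 and 277 CPM in obese replicate 3, against 148 to 227 CPM in the other 8. The 7 fibroblast markers summed to 2258, 1994 and 2358 CPM in the same 3 libraries, against 919 to 1414 CPM in the other 8. The 6 adipocyte markers summed to 11.01, 9.46 and 8.42 CPM in them, but obese replicate 2, which was not atrial-high, also had 9.05 CPM, and the other 7 libraries had 0.255 to 1.33 CPM. The 5 mesothelial markers summed to 35.6, 23.5 and 13.0 CPM in them, against 4.70 to 10.4 CPM in the other 8. The 7 mural markers went the other way, with 897, 741 and 897 CPM in them, the 3 lowest sums, against 954 to 1590 CPM in the other 8. Their part in the member values was not tested. Without the 3 libraries, Ccl6 (-1.01, adjusted p = 0.0175) and Igfbp6 (-0.79, adjusted p = 0.0170) were lower and Igfbp5 (0.94, adjusted p = 0.0397) higher in obese than in control-diet hearts, whereas with them Ccl6 had -0.24 and Igfbp6 -0.50 and neither passed.

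**Figure D4:**
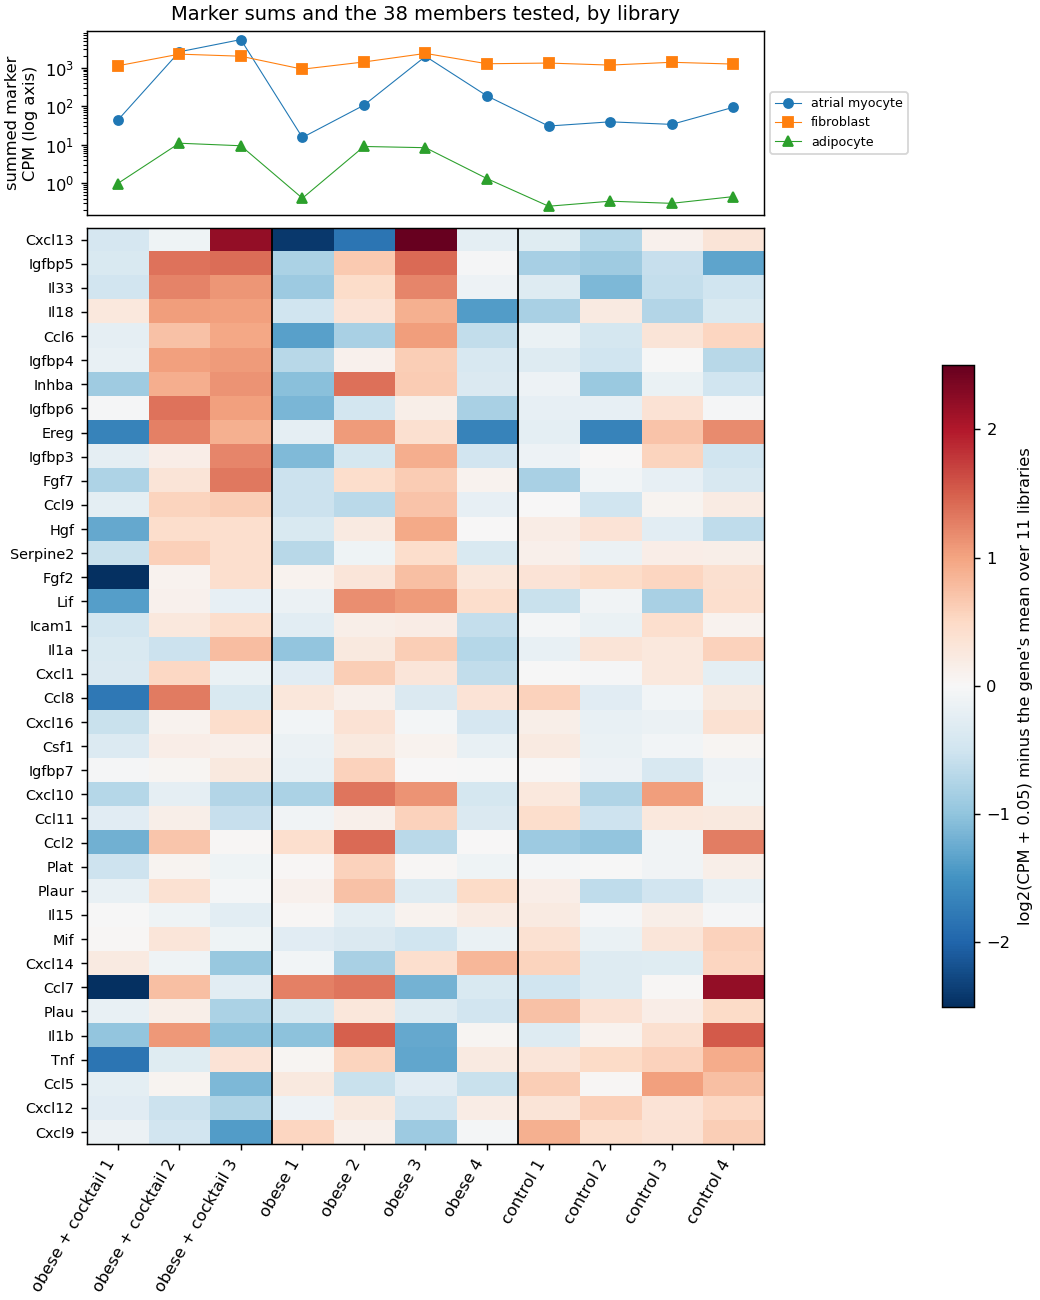
Log2(CPM + 0.05) of the 38 tested members in each of 11 libraries, as the difference from the member's mean, rows ordered by how far the atrial-high libraries stand above the rest, with the sums of atrial, fibroblast and adipocyte markers (CPM, log axis) above. Treated replicates 2 and 3 and obese replicate 3 share the high values at the top of the map and the low values of Cxcl9 and Cxcl12 at its foot.

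Cxcl13, which attracts B cells through CXCR5, was spread widely in both obese groups. It had 0.621, 0.785 and 4.09 CPM in treated, 0.120, 0.204, 9.25 and 0.714 CPM in vehicle-treated obese, and 0.679, 0.502, 0.920 and 1.08 CPM in control-diet hearts. A single library in each of the obese groups, treated replicate 3 and obese replicate 3, held the high value, and the log2 fold change of 1.69 for obese against control diet had an SE of 1.26 (adjusted p = 0.338) and was -1.17 (adjusted p = 0.133) without the atrial-high libraries. Inhba, which encodes a subunit of activin A, had 1.98, 6.98 and 8.12 CPM in treated, 1.78, 9.67, 5.78 and 2.87 CPM in vehicle-treated obese, and 3.38, 1.94, 3.29 and 2.61 CPM in control-diet hearts. Its high values were in treated replicates 2 and 3 and obese replicates 2 and 3, the 4 libraries with the most adipocyte marker signal, and it passed in no comparison (adjusted p = 0.93, 0.255 and 0.242 for treated against obese, obese against control diet and treated against control diet). Without the atrial-high libraries, where treated replicate 1 stands alone, its log2 fold change of 1.02 in treated against control-diet hearts was -0.49.

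Fgf2, basic fibroblast growth factor (GRCm38 chr3:37348346-37410108, plus strand), was low in a single library. It had 1.89, 26.4 and 33.3 CPM in treated, 26.4, 30.8, 41.6 and 30.2 CPM in vehicle-treated obese, and 31.6, 34.3, 36.1 and 32.6 CPM in control-diet hearts. Treated replicate 1 held 128 Fgf2 counts, against 1544 to 3217 in the other 10 libraries, which lay between 26.4 and 41.6 CPM. The neighbours were not low there: Nudt6, whose exons overlap those of Fgf2 on the opposite strand, had 9.33 CPM in treated replicate 1 and 4.53 to 9.22 CPM elsewhere, and Spata5 had 8.37 CPM against 7.12 to 10.8 CPM elsewhere. The log2 fold change of treated against vehicle-treated obese hearts was -0.65 (SE 0.68, adjusted p = 0.759), and -0.11 (adjusted p = 0.797) without treated replicate 1.

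**Figure D5:**
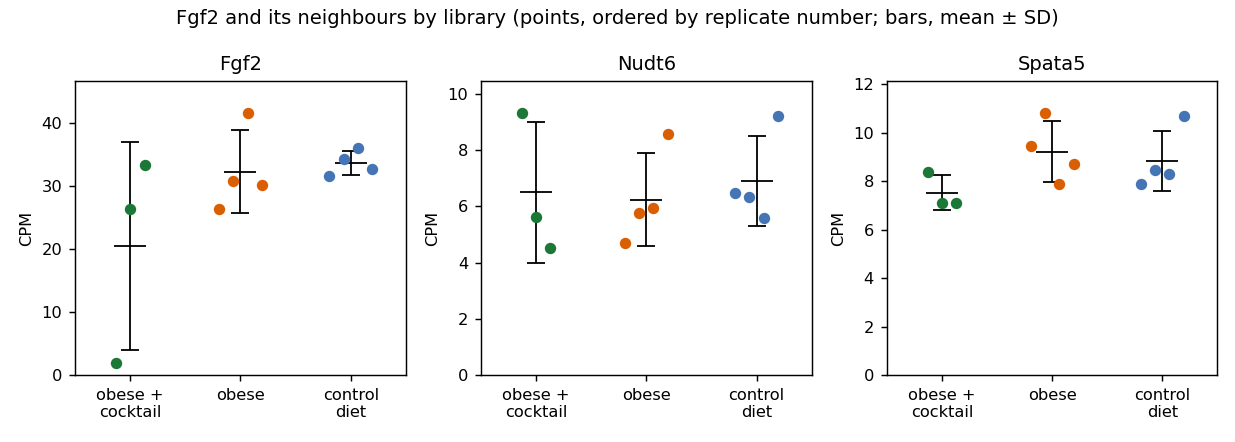
CPM of Fgf2 and its neighbours Nudt6 and Spata5 in each library, with groups in the order treated obese, obese and control diet and each axis starting at 0. Treated replicate 1 lies at 1.89 CPM for Fgf2 while all other libraries lie at 26.4 CPM or more, and the same library is not low for either neighbour.

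The classic inflammatory members stayed near the limit of measurement. Il1b averaged 0.235 ± 0.257 CPM in treated (SD, n = 3), 0.276 ± 0.307 CPM in vehicle-treated obese and 0.369 ± 0.260 CPM in control-diet hearts (SD, n = 4 each). Tnf averaged 0.171 ± 0.138 CPM in treated (SD, n = 3), 0.236 ± 0.125 CPM in vehicle-treated obese and 0.374 ± 0.0793 CPM in control-diet hearts (SD, n = 4 each). Their group ranges overlapped, and SEs of 0.55 to 0.87 on the log2 scale leave changes of moderate size undetectable at this depth. Ccl2, the main monocyte chemokine, averaged 0.343 ± 0.226 CPM in treated (SD, n = 3), 0.491 ± 0.341 CPM in vehicle-treated obese and 0.376 ± 0.351 CPM in control-diet hearts (SD, n = 4 each). Ccl7, Ccl8, Ccl11, Cxcl1, Il1a and the EGF receptor ligand Ereg were also under 1 CPM on average and passed in no comparison.

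Icam1, an adhesion molecule for leukocytes, averaged 12.2 ± 3.71 CPM in treated (SD, n = 3), 10.4 ± 2.56 CPM in vehicle-treated obese and 11.9 ± 2.16 CPM in control-diet hearts (SD, n = 4 each). Plat, the tissue plasminogen activator, averaged 10.8 ± 2.23 CPM in treated (SD, n = 3), 13.6 ± 3.07 CPM in vehicle-treated obese and 12.2 ± 0.841 CPM in control-diet hearts (SD, n = 4 each). Cxcl16, a membrane-bound chemokine shed by ADAM10, averaged 6.55 ± 2.18 CPM in treated (SD, n = 3), 6.26 ± 1.43 CPM in vehicle-treated obese and 6.63 ± 1.27 CPM in control-diet hearts (SD, n = 4 each). The groups overlapped for all 3 and none passed. Cxcl14, Serpine2 (an inhibitor of thrombin and plasminogen activators), Hgf and Fgf7 also passed in no comparison, and Fgf7 had an unadjusted p of 0.0496 in treated against control-diet hearts (log2 fold change 0.89, adjusted p = 0.155).

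Genes that receive, drive or process these signals were taken from 3 further lists. In obese against control-diet hearts, 2 of 42 receptors and binding partners were higher and 5 lower, 4 of 30 regulators were higher and 7 lower, and 3 of 23 processing enzymes and antagonists were higher and 6 lower, beside 30.1% of all genes called in either direction. Their median log2 fold changes were -0.06, -0.06 and 0.07, beside 0.11 over all genes. In treated against vehicle-treated obese hearts 0 genes of any list passed in edgeR, DESeq2 or voom. At an unadjusted p under 0.05 edgeR had 2 receptors higher and 1 lower, 1 regulator higher and 2 lower, and 2 processing genes higher and 1 lower, beside 5.04% of all genes higher and 5.16% lower. In treated against control-diet hearts 1 receptor was higher and 2 lower, 2 regulators higher and 4 lower, and 2 processing genes higher and 2 lower, beside 7.43% of all genes higher and 8.39% lower.

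Among the receptors, Igf2r, which takes up IGF2 and mannose-6-phosphate ligands, averaged 186 ± 20.5 CPM in obese and 316 ± 35.2 CPM in control-diet hearts (SD, n = 4 each), 1.69-fold lower (adjusted p = 0.00108). Il6st, the signalling subunit shared by receptors for IL-6 and LIF, averaged 158 ± 31.9 CPM in obese and 242 ± 29.5 CPM in control-diet hearts (1.53-fold lower, adjusted p = 0.0212). Il2rb, part of the IL-15 receptor, averaged 0.819 ± 0.180 CPM in obese and 1.75 ± 0.440 CPM in control-diet hearts (2.14-fold lower, adjusted p = 0.00996). Fgfr1, a receptor for FGF2, went the other way with 49.2 ± 8.69 CPM in obese and 34.6 ± 2.51 CPM in control-diet hearts (1.42-fold higher, adjusted p = 0.0169). The groups of all 4, picked by smallest p in this comparison, did not overlap, beside 13.8% of all genes wholly above and 14.7% wholly below.

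Among the regulators, Ikbkb and Ikbkg, subunits of the kinase that activates NF-kappa-B, moved in opposite directions. Ikbkb, a catalytic subunit, averaged 36.2 ± 6.35 CPM in obese and 22.6 ± 2.27 CPM in control-diet hearts (1.60-fold higher, adjusted p = 0.00214). Ikbkg, the scaffold subunit, averaged 25.6 ± 3.35 CPM in obese and 41.5 ± 2.79 CPM in control-diet hearts (1.62-fold lower, adjusted p = 0.000744). Chuk, another subunit on the list, was called in neither direction. Nfkbiz, a nuclear cofactor of NF-kappa-B, averaged 11.3 ± 2.32 CPM in obese and 6.70 ± 0.212 CPM in control-diet hearts (1.69-fold higher, adjusted p = 0.00258). Hmgb1, a chromatin protein that acts as an alarmin once released, averaged 60.6 ± 6.88 CPM in obese and 112.5 ± 11.1 CPM in control-diet hearts (1.86-fold lower, adjusted p = 0.000448).

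Among processing enzymes and antagonists, Lrg1, a secreted glycoprotein that modifies TGF-beta signalling, averaged 18.7 ± 4.33 CPM in obese and 38.4 ± 5.85 CPM in control-diet hearts (SD, n = 4 each, 2.05-fold lower, adjusted p = 0.00194). Adam10, a sheddase whose substrates include CXCL16, averaged 41.2 ± 3.58 CPM in obese and 60.0 ± 6.40 CPM in control-diet hearts (1.46-fold lower, adjusted p = 0.00686). Hgfac, the protease that activates HGF, averaged 0.859 ± 0.312 CPM in obese and 0.237 ± 0.0870 CPM in control-diet hearts (3.57-fold higher, adjusted p = 0.00808). These 11 genes were picked from the 3 lists by smallest p in this comparison. A gap between the groups and a stable sign follow largely from that choice. None overlapped between obese and control-diet libraries, beside 13.8% of all genes wholly above and 14.7% wholly below. None changed sign in any of the 22 alternatives. All 11 lost their calls with the intronic share as a covariate, in which 0 genes of the 3 lists passed. That share did not overlap between these groups, so these losses do not tell diet and share apart. With library totals alone, Adam10, Ikbkg, Il2rb and Il6st lost theirs, and the lists then had 7 receptors higher and 1 lower, 12 regulators higher and 1 lower, and 9 processing genes higher and 2 lower. Leaving out 1 library ended the call of Il6st in 3 cases (control replicates 3 and 4 and obese replicate 1, adjusted p 0.0546 to 0.0616) and of Fgfr1 in 2 (control replicate 4 and obese replicate 2, adjusted p 0.0610 and 0.0508).

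The direction of small differences against control diet depended on the scaling. Over all genes, 3429 were called higher and 3737 lower in obese hearts with TMM scaling, 4378 and 2926 with upper-quartile scaling, and 9061 and 960 with library totals alone. The median of all genes moved up by 0.10 under upper-quartile scaling and by 0.42 under library totals. The log2 fold change of Cxcl12 was -0.36 under upper-quartile scaling (adjusted p = 0.109), where the median of all genes was 0.21, and -0.05 under library totals (adjusted p = 0.808), where that median was 0.53. Mif, at -0.18 under library totals, stood below the same median.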

How the data were processed

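The deposited table gave whole-number counts per Ensembl gene for 11 libraries; per the submitters' processing notes, the authors used cutadapt, HISAT2 and StringTie with build GRCm38. The sources used here give no versions, annotation, counting settings or strand setting, and do not say whether the counts are reads or estimates from coverage. Symbols, exon lengths and positions came from GENCODE mouse release 21 (55141 of 55487 identifiers found, and for 106 symbols on several identifiers the one with the largest total was taken).

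Genes were filtered with filterByExpr (minimum count 10, minimum total 15), scaled by TMM (factors 0.733 to 1.20) and fitted together, all 3 groups in 1 quasi-likelihood model (edgeR 4.0.16, R 4.3.3), with Benjamini-Hochberg adjustment over 23779 genes. The common biological coefficient of variation was 0.259, and the self-test used simulated counts. The SE of a log2 fold change is its size over the root of the F statistic. CPM used TMM-scaled library sizes. Shares and floors cover counting error only. The members and lists were chosen with earlier results of these data known. Given in every library were the members called in a comparison, the 6 with the smallest p in treated against vehicle-treated obese hearts and the 6 with the highest mean CPM; given as group means were, from each further list, the 4 genes with the smallest p in obese against control-diet hearts (1 is not reported here); other values were added after they were seen or to account for every member. DESeq2 1.42.0 and limma voom (limma 3.58.1), other scalings, filters and covariates, a replicate block and left-out libraries were alternatives.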

Additional observations from a re-analysis of the deposited data

Results flagged for a closer look

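In groups of 4 libraries, 6 of 76 groups examined over the tested members had a highest or lowest library set apart from the other 3 (the gap to the nearest library over the whole range, above Dixon's critical value for 4), and chance flags about 1 in 20 groups. In obese hearts these were Ccl6 in replicate 3 at 14.99 CPM, Cxcl13 in replicate 3 at 9.25 CPM, Plau in replicate 2 at 3.27 CPM and Plat in replicate 2 at 18.1 CPM, each the highest of its group. In control-diet hearts they were Ccl7 in replicate 4 at 1.64 CPM, the highest, and Serpine2 in replicate 2 at 11.2 CPM, the lowest. The treated group, with 3 libraries, was not examined in this way, so the 1.89 CPM of Fgf2 in treated replicate 1 is not among them.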

How the results depend on the processing

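Against control diet, obese hearts had 0 members higher and 2 lower. The higher count became 1 under upper-quartile scaling, a mean of at least 1 CPM, only the 2 groups compared, a replicate block, DESeq2 and omission of the 3 atrial-high libraries, each time Igfbp5, and 8 with library totals alone. The lower count became 1 under upper-quartile scaling and under the 1 CPM filter, and 0 with library totals and with the intronic covariate. It became 4 under the replicate block and DESeq2. Over all 23779 genes, library totals called 9061 higher and 960 lower, and upper-quartile scaling 4378 and 2926. DESeq2 called 3717 and 4480 of them, the replicate block 3315 and 3797, and the intronic covariate 35 and 86. The 1 CPM filter gave 3217 and 3213 of 15574 genes. With only the 2 groups these were 3263 and 3410 of 22106, and without the atrial-high libraries 2884 and 3281 of 25479. Mif, at -0.62, reversed to 0.14 with the intronic covariate (the intronic share of each library). That share did not overlap between obese and control-diet libraries, so diet and share cannot be told apart in this fit. Treated against vehicle-treated obese hearts had 0 and 0, with 1 higher in DESeq2 (Igfbp6) and 1 lower without the atrial-high libraries (Fgf2, log2 fold change -3.93, adjusted p = 3.3e-05, a fit in which treated replicate 1 stands alone). Treated against control-diet hearts had 2 higher, which became 1 with RLE scaling and voom, 7 with library totals, 4 with only the 2 groups, and 0 with no count filter, the intronic covariate and omission of the atrial-high libraries; the 2 lower became 1 with library totals, 0 with the intronic covariate and 1 (Fgf2) without the atrial-high libraries. Over all 23779 genes, library totals called 6911 higher and 389 lower in treated than in control-diet hearts. The fit of only the 2 groups called 1881 and 1864 of 22544. The causes of these changes in count were not tested. With 1 library left out, the higher and lower counts ranged from 0 to 2 and 1 to 4 for obese against control diet, were 0 throughout for treated against obese, and ranged from 0 to 5 and 1 to 3 for treated against control diet. Of 327 values of single named genes under an alternative, 256 kept direction and side of the threshold, 48 lost the call, 22 gained one and 1 reversed. A gene not called in the main fit has no call to lose, so the losses belong to called genes alone. In treated against control-diet hearts these were 13 of 22 for Igfbp4, 11 for Igfbp5, 8 for Cxcl9 and 2 for Cxcl12. In obese against control-diet hearts they were 13 of 22 for Cxcl12 and 1 for Mif, beside its reversal. The values do not settle whether the replicate numbers pair the libraries. Same-number pairs had correlations of -0.232 to 0.399 (median 0.0573, 10 pairs), and different-number pairs -0.408 to 0.192 (median -0.0298, 30 pairs). For 6 of 11 libraries the highest correlation was with a library of the same number. With the replicate block, 3315 genes were higher and 3797 lower in obese than in control-diet hearts. Depth limits the 13 tested members under 1 CPM, and 3 or 4 libraries a group limit all.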
